A study of Mus musculus with 4 samples.

Results

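Livers of male C57Bl/6J mice given an atherogenic diet without added fat were compared with livers of male C57Bl/6J mice given standard chow, after 6 weeks and after 24 weeks. The comparison rests on the 2 arrays labelled with that diet, of 4 in the series; the other 2 arrays carry an atherogenic diet with added fat and served here as background. Each array held diet liver RNA in Cy5 and chow liver RNA in Cy3, so each value is a log ratio of diet over chow, printed here as log2. Each duration had 1 array and no array had its dyes swapped, so a preference of a single probe for 1 dye and an effect of the diet cannot be told apart. The labels give neither the age of the mice, the number of animals behind an array, the composition of the diets nor whether arrays shared a chow sample, and for the 6-week array they give no duration for the chow group. Members of the comparison were all 13930 genes with a value on both arrays, each taken as the mean of the probes that name only that gene.

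Atherogenic diets load the mouse liver with cholesterol, and the usual formulations also contain a bile salt. Hepatocytes respond to sterol through transcription factors that lower cholesterol synthesis and raise sterol export, while bile acids restrain their own synthesis. Kupffer cells, the resident macrophages of the liver, and recruited leukocytes take up lipid and release inflammatory signals, and stellate cells lay down matrix in the injured liver. Whole liver RNA holds all of these cells, so a change in the number of cells of a type and a change of RNA per cell cannot be told apart.

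Tested with limma as the mean of the 2 arrays against 0, 669 of 13930 genes (4.8%) passed an adjusted p of 0.05, of which 411 (2.95%) were higher and 258 (1.85%) lower on the diet. These shares are the background for the counts of the lists below. The smallest adjusted p was 0.0315, and 4724 genes (33.9%) had an unadjusted p under 0.05. The replicates in this test are 2 durations, so its p-values measure the spread between 2 arrays and not between animals. Over all genes the median log2 ratio was -0.003 at 6 weeks and 0.043 at 24 weeks, with SDs of 0.51 and 0.45, and the arrays differed by a median of 0.20 per gene. Signs matched on both arrays for 5586 genes above 0 (40.1%) and 4980 below 0 (35.8%), and opposed for 3283 (23.6%). Past 2-fold on the 6-week array lay 590 genes higher (4.24%) and 236 lower (1.69%), and on the 24-week array 294 higher (2.11%) and 180 lower (1.29%). At least 2-fold differences on both arrays in the same direction were found for 148 higher genes (1.06%) and 94 lower genes (0.675%), and in opposite directions for 0 genes. Of these 242 genes, 234 (96.7%) passed the limma test, which uses the same 2 values, so this share is not a separate check. These folds rest on reading the deposited logarithms as base 10, which the sources used here do not state.

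**Figure D1:**
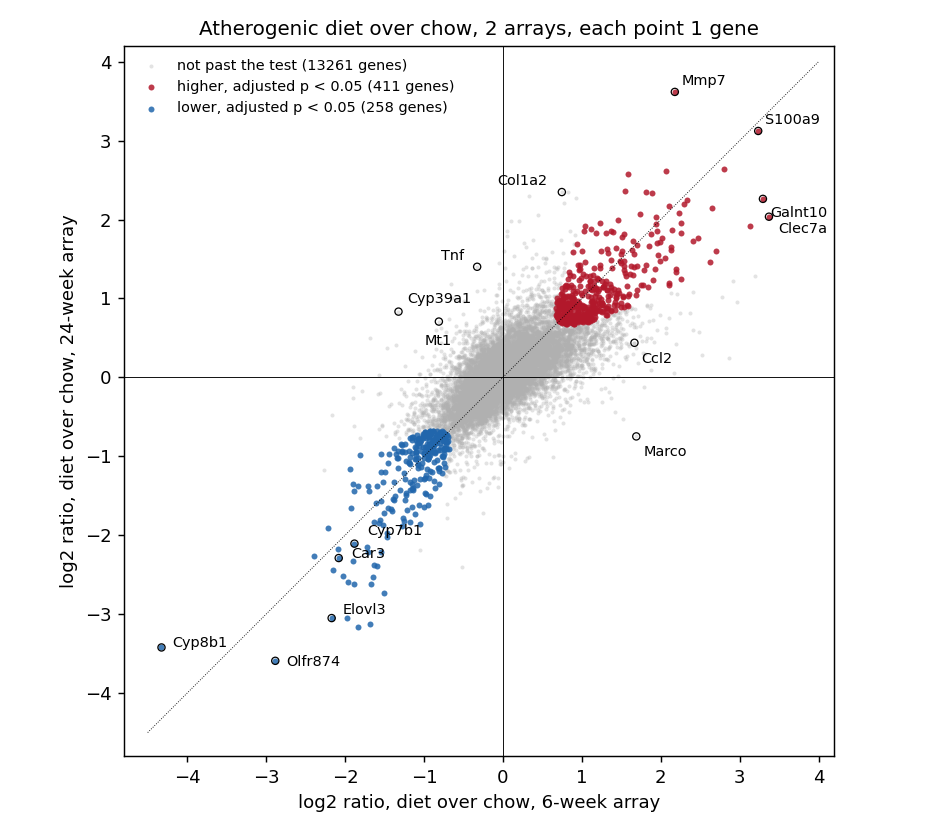
Log2 ratio of diet over chow on the 6-week array (horizontal) and the 24-week array (vertical), 1 point per gene, with 411 genes higher (red) and 258 lower (blue) past an adjusted p of 0.05. S100a9 stands at 3.24 and 3.12 and Cyp8b1 at -4.33 and -3.42, while Marco (1.69 and -0.75) and Cyp39a1 (-1.32 and 0.83) have opposite signs.

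The 12 largest rises were ranked by the smaller of the 2 values. S100a9 and S100a8, which together form the calprotectin of neutrophils and monocytes, stood highest in this order. S100a9 had log2 ratios of 3.24 at 6 weeks and 3.12 at 24 weeks. Its mean was 3.18 ± 0.12 (moderated SE, n = 2 arrays), or 9.06-fold (limma adjusted p = 0.0315). Each SE in this text is the moderated SE of limma, which borrows spread from all genes and is not the spread of the 2 arrays alone. S100a8 had 2.80 and 2.64, a 6.59-fold rise. The 2 arrays were close for both genes. Lcn2, the iron-binding lipocalin of neutrophils and of stressed epithelium, rose by 2.33 and 2.25, and the chemokine gene Ccl6 by 2.29 and 2.20. S100a11, a calcium-binding protein gene of many cell types, rose by 2.10 and 2.17. Lyz1, a lysozyme gene, rose by 2.23 and 2.09, and Saa3, a serum amyloid A gene made mainly outside hepatocytes, by 2.26 and 1.95. Other rises were uneven. Mmp7, the epithelial protease matrilysin, was at 2.18 at 6 weeks and 3.62 at 24 weeks (mean 2.90 ± 0.36, moderated SE, limma adjusted p = 0.0429). Clec7a, the dectin-1 receptor gene of macrophages, was at 3.37 and 2.04, and Galnt10, which starts mucin-type sugar chains on proteins, at 3.29 and 2.26. Their means still passed the test, and so did those of Tspan8, a tetraspanin of epithelia (2.06 and 2.61), and H2-Aa (2.65 and 2.15).

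The 12 largest falls were headed by Cyp8b1, the enzyme that directs bile acid synthesis to cholic acid. Cyp8b1 stood at -4.33 at 6 weeks and -3.42 at 24 weeks. Its mean was -3.87 ± 0.24 (moderated SE, n = 2 arrays), or 14.7-fold lower (limma adjusted p = 0.0315). Elovl3, a fatty acid elongase with higher expression in male liver, fell by 2.17 and 3.05 at the same times. Car3, an abundant carbonic anhydrase of hepatocytes and adipocytes, was at -2.08 and -2.29, or 4.54-fold lower. On the high-fat arrays Car3 was at -0.59 and -0.71, and the difference between the diets passed with duration as a block (-1.53, limma adjusted p = 0.00729) but not without it. Without the block 8 of 13705 genes (0.0584%) passed, all with high-fat values at or near ones that many probes shared, and with it 1541. Man2b1, the lysosomal alpha-mannosidase gene, was at -2.40 and -2.27. Of the remaining 8, Bdkrb1 (a bradykinin receptor gene), Btbd11 and Zcchc7 had means of -2.29, -2.28 and -2.12. The other 5 were the olfactory receptor gene Olfr874 (-2.88 and -3.59), the vomeronasal receptor gene Vmn1r179 (-2.08 and -2.17), Krtap17-1, a keratin-associated gene of hair (-1.97 and -3.04), the pseudogene Nlrp5-ps (-2.03 and -2.52) and the antisense transcript Nudt12os (-2.21 and -1.90). Olfr874 was at -4.83 and -3.65 on the high-fat arrays, which have the same dye orientation. Chemosensory receptor genes, which act in sensory epithelia, counted 877 in all, of which 10 (1.14%) were called higher and 28 (3.19%) lower, against 2.95% and 1.85% of all genes. Whether their lower ratios come from the probes was not tested.

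**Figure D2:**
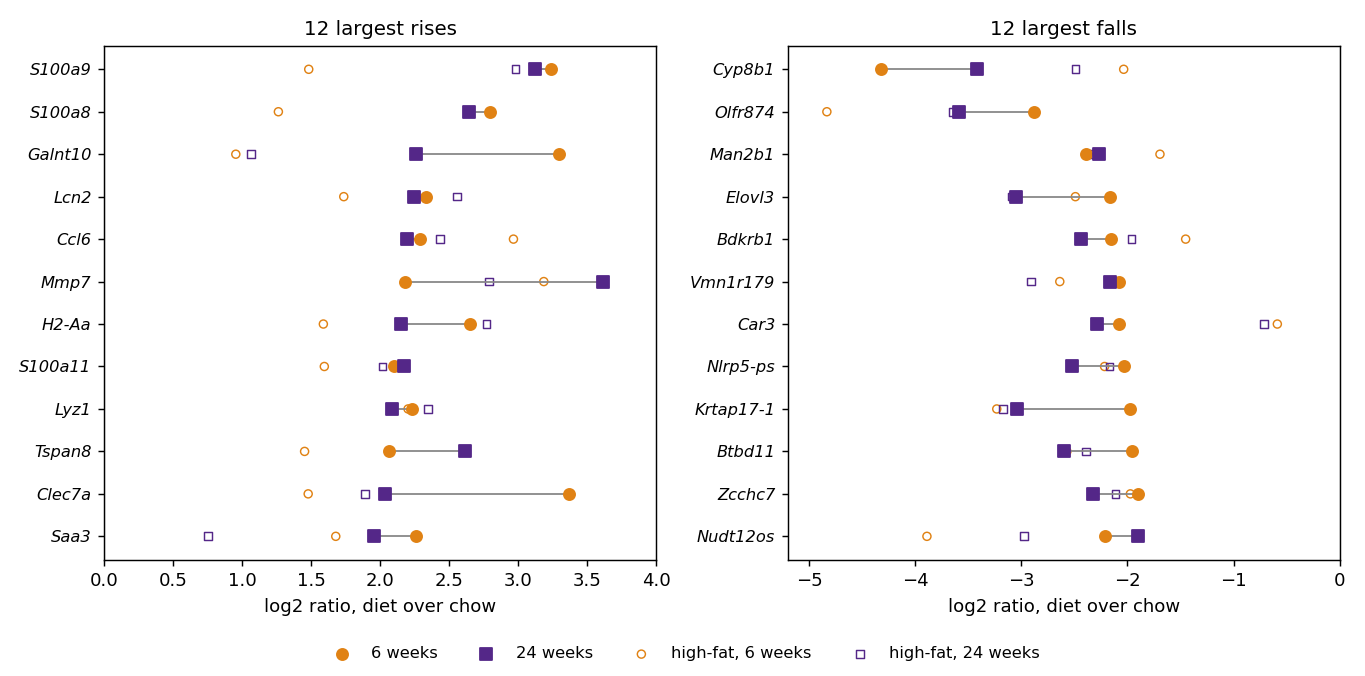
Log2 ratio of diet over chow (horizontal axis, each panel with its own scale) for the 12 largest rises and the 12 largest falls, with filled circles for the 6-week array, filled squares for the 24-week array and open symbols for the high-fat arrays as background. S100a9 reached 3.24 and 3.12, and Cyp8b1 -4.33 and -3.42.

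Macrophage markers were the marker list with the most calls. Of 14 measured markers of infiltrating and lipid-associated macrophages, 8 rose and 0 fell, 12 lay above 0 on both arrays, and the list's median was 1.02 at 6 weeks and 1.13 at 24 weeks. Beside Lyz1 and Clec7a the list held Ctss, the cathepsin S gene of antigen-presenting cells, at 1.89 and 2.34 (4.34-fold, limma adjusted p = 0.0315). The tetraspanin gene Cd9 rose by 1.82 and 2.35, Gpnmb, a glycoprotein gene of lipid-laden macrophages, by 1.38 and 1.85, and the elastase gene Mmp12 by 1.33 and 1.57. Trem2, a lipid-sensing receptor gene, stood at 0.98 and 1.42, and Cd68, a lysosomal glycoprotein gene, at 0.84 and 0.75. The members that did not pass included the chemokine receptor gene Ccr2 (0.66 and 0.74) and Itgam, a myeloid integrin gene (-0.21 and -0.01).

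Of 10 measured Kupffer cell markers 3 rose and 0 fell. Above 0 on both arrays lay 7 and below 0 lay 1, with medians of 0.93 at 6 weeks and 0.40 at 24 weeks. All 3 measured subunit genes of complement C1q rose: C1qb by 2.26 and 1.83, C1qc by 1.32 and 1.10, and C1qa by 1.01 and 1.61. The remaining 7 markers did not pass the test. Among these Vsig4, a complement receptor gene of resident macrophages, had -0.62 and -0.85, Clec4f, a lectin gene restricted to Kupffer cells, had 0.57 and 0.02, and Marco, a scavenger receptor gene, had 1.69 and -0.75. The 2 probes for Adgre1, also not past the test, were at 0.84 and 0.86 at 6 weeks and ran from 0.51 to 0.55 at 24 weeks. The C1q genes are also expressed by other macrophages.

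Of 13 measured neutrophil markers 4 rose and 0 fell. These were S100a9, S100a8, Lcn2 and Camp, the cathelicidin gene, which had 0.89 and 1.15. Over all 13 markers, 10 lay above 0 on both arrays and 2 below, with medians of 0.45 at 6 weeks and 0.59 at 24 weeks. Neutrophil markers that did not pass were uneven. Ngp was at 0.38 and 1.75, Ly6g at 0.82 and 0.29, Mpo at -0.42 and -0.23 and Elane at -0.64 and -0.61. S100a8, S100a9 and Lcn2 are also made by other myeloid cells or by epithelium.

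Lymphocyte markers gave 0 rises and 2 falls, beside 2.95% of all genes called higher and 1.85% lower. In the list for T and natural killer cells 1 of 16 measured genes passed: Thy1, at -1.83 and -3.17 (limma adjusted p = 0.0447). Cd3d was at 1.74 and 0.52, Cd3e at 0.25 and 0.20, Cd3g at 0.08 and -0.22, and Cd247, the zeta chain of the receptor complex, at -0.18 and -0.49 as the mean of 3 probes that ran from -1.42 to 0.49 at 6 weeks; none of these passed. Of 7 B and plasma cell markers Pax5 fell (-1.06 and -0.87), while Cd79a was at 0.57 and 0.33. In the markers of dendritic cells, endothelium, red cell precursors, adipocytes, exocrine pancreas and skeletal muscle 0 of 51 genes passed the limma test in either direction, and 18 had an unadjusted p under 0.05, near the 33.9% of all genes.

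Genes of MHC class II, which present peptides to helper T cells, had a median of 1.11 at 6 weeks and 0.58 at 24 weeks. Of 11 measured, 4 rose, 0 fell and 10 were above 0 on both arrays. H2-Aa was at 2.65 and 2.15 (5.28-fold, limma adjusted p = 0.0315), H2-Eb1 at 1.96 and 1.85, H2-Ab1 at 1.49 and 1.45, and Cd74, the invariant chain, at 1.10 and 1.17. Probes of 1 gene did not always match: among 5 probes for H2-Ab1 the 6-week value ran from -0.27 to 2.38, and among 3 for Cd74 from -0.14 to 1.74. H2-DMb1, a subunit gene of the peptide-loading chaperone, was at 2.20 and 1.06, and Ciita, the master activator of these genes, at 0.27 and 0.13; neither passed. The promoters of class II genes are known for a shared module that ends in a CCAAT box, the sequence bound by the factor NF-Y, and those of the H2-Aa and H2-Eb1 genes, which moved together, are shown for this reason. The RefSeq sequences (build GRCm38.p6) cover the 110 bases before the transcription start, at chr17:34287824-34287933 on the minus strand for H2-Aa and chr17:34305757-34305866 on the plus strand for H2-Eb1, with CCAAT or its complement ATTGG in capitals.
H2-Aa: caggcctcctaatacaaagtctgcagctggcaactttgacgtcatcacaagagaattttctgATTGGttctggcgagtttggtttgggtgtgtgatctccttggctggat
H2-Eb1: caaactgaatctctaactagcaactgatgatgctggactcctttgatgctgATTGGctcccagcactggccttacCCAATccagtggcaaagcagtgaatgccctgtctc
The motif CCAAT, searched on both strands, was present in the window of 7 of 8 class II members with a listed promoter (87.5%), called or not, and for 23.0% of all genes listed (20.2% of 32851 promoters). These matches describe the sequence and show no binding.

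**Figure D3:**
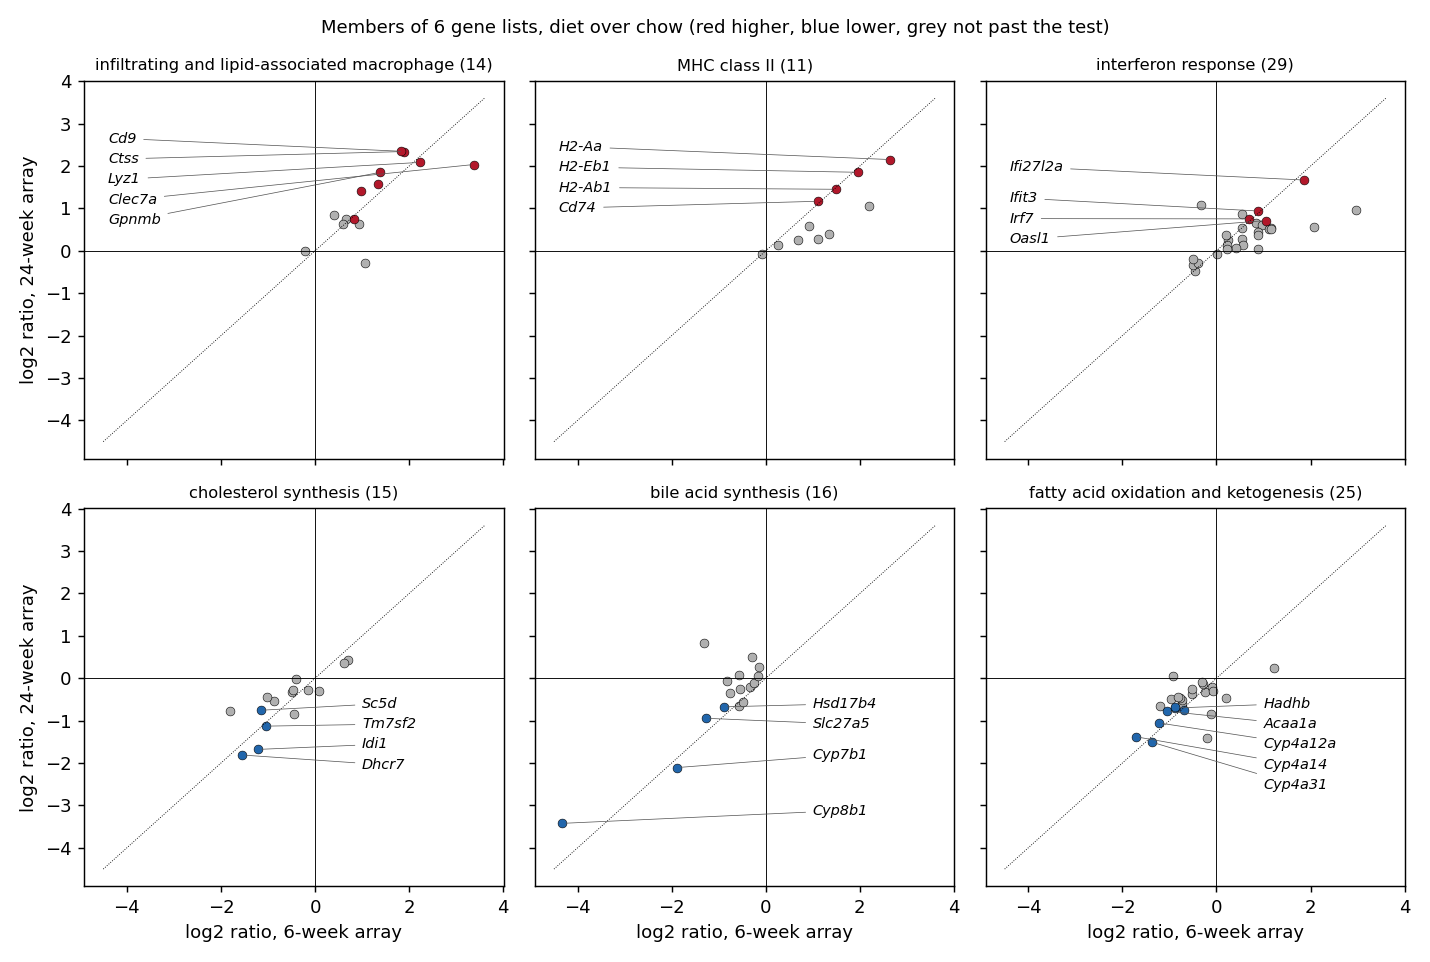
Log2 ratio of diet over chow on the 6-week array (horizontal) and the 24-week array (vertical) for the measured members of 6 gene lists, with called genes in red (higher) or blue (lower), others in grey, and up to 5 called genes named. All 4 called class II genes lie above 0 on both arrays and all 4 called cholesterol synthesis genes below 0.

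Chemokines recruit leukocytes, and of 28 measured genes for chemokines and their receptors 5 rose and 0 fell. Ccl6 led, followed by Ccl9 (2.20 and 1.37), Cxcl16, the ligand of a receptor on T cells (1.65 and 1.30), the neutrophil attractant gene Cxcl1 (1.18 and 0.85) and the lymphoid chemokine gene Ccl19 (0.80 and 0.68). Ccl9 lost its call without the 6-week array (limma adjusted p = 0.095). Larger values that did not repeat at 24 weeks were Cxcl9 (2.86 and 0.24), Ccl8 (1.80 and 0.30) and the monocyte attractant gene Ccl2 (1.67 and 0.44; limma adjusted p = 0.101). Ccl5 was at 2.42 and 1.09 and missed the threshold.

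Among 25 measured genes of cytokines and inflammatory signalling 5 rose and 0 fell. Vcam1, an adhesion molecule for leukocytes, was at 1.46 and 1.99 (3.3-fold, limma adjusted p = 0.0352). Il1rn, the natural antagonist of interleukin 1, rose by 1.36 and 1.10, Il18 by 0.98 and 0.73, and the receptor genes Tlr7 and Cd14 by means of 1.18 and 0.82. The cytokine genes Tnf (-0.33 and 1.40), Il1b (0.74 and -0.42) and Il6 (0.53 and 0.11) did not pass. Both subunits of the membrane part of the phagocyte NADPH oxidase rose, Cybb at 1.5 and 1.57 and Cyba at 0.80 and 0.71. The 2 probes for Cyba lay apart, at -0.37 and 1.96 on the 6-week array.

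Interferon response genes had medians of 0.57 and 0.44, with 4 of 29 higher, 0 lower and 23 above 0 on both arrays. Ifi27l2a was at 1.86 and 1.67, Ifit3 at 0.88 and 0.94, Oasl1 at 1.05 and 0.71, and Irf7, the factor that amplifies type I interferon, at 0.69 and 0.75. The guanylate-binding protein genes Gbp3 (2.97 and 0.96) and Gbp2 (2.07 and 0.56) had the highest 6-week values of the list and did not pass.

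Acute phase genes are made largely by hepatocytes during inflammation, though Saa3 is made mainly outside them and Lcn2 also by neutrophils. Of 20 measured, 4 rose and 0 fell: Lcn2, Saa3, Saa2 (0.93 and 1.68) and Apcs, serum amyloid P (0.75 and 1.13), which was lost without the 24-week array (limma adjusted p = 0.0716). Saa1 was at -0.25 and -0.27, on the other side of 0 from its close relative Saa2, and probe specificity between these near-identical genes was not tested. Serpina3n had -0.50 and 0.97 and Crp -0.93 and -0.34.

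The list for proteases of the lysosome, which is not limited to proteases, gave 3 rises among 15 genes. Beside Ctss these were Cstb, an inhibitor of cathepsins (2.14 and 1.61), and Ctsc, cathepsin C (1.11 and 1.12). Of 10 annexins, which bind membranes in the presence of calcium, Anxa2 (1.95 and 1.94), Anxa1 (1.5 and 1.78) and Anxa5 (1.04 and 1.91) rose. Markers of bile duct cells also counted 3 rises among 11 measured and a higher median at 24 weeks (0.91) than at 6 weeks (0.33), a difference between the durations that has no test. Tspan8, Anxa5 and the keratin gene Krt23 (1.12 and 0.95) passed. Krt23 lost its call with either array left out (limma adjusted p = 0.0893 without the 6-week and 0.0522 without the 24-week array), and Anxa5 with robust eBayes (0.0518) and without shared values (0.0508). Krt19, a defining duct keratin, was at 0.52 and 0.91, and Epcam, the surface adhesion molecule of duct cells, at 0.33 and 2.30; neither passed.

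In the list of collagen and matrix genes 0 of 32 measured passed the limma test. Above 0 on both arrays were 21, against 40.1% of all genes. An unadjusted p under 0.05 was found for 15, against 33.9% of all genes. The medians were 0.13 at 6 weeks and 0.46 at 24 weeks. A probe within 0.003 (log10) of the shared 24-week value described below was found for 5 of the genes. Col1a2, a chain of type I collagen, was at 0.75 and 2.35 (mean 1.55 ± 0.40, moderated SE, limma adjusted p = 0.0803). Col1a1, the other chain, was at 0.48 and 0.70 as the mean of 5 probes that ran from 0.11 to 1.79 at 24 weeks. Col5a2 was at 0.93 and 2.28, the collagen-binding glycoprotein gene Sparc at 0.92 and 1.80, and Lum, a proteoglycan gene, at 0.05 and 1.79. These genes were higher on the 24-week array than on the 6-week array, and with 1 array per duration this was not tested. In the list for stellate cells and fibroblasts 1 of 14 rose, the intermediate filament gene Vim (1.54 and 1.82), which leukocytes also express. Acta2, the smooth muscle actin of activated stellate cells, was at -0.25 and 0.30, Tgfb1, the fibrogenic cytokine, at -0.08 and 0.84, and Timp1, an inhibitor of matrix proteases, at 0.46 and 0.69.

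**Figure D4:**
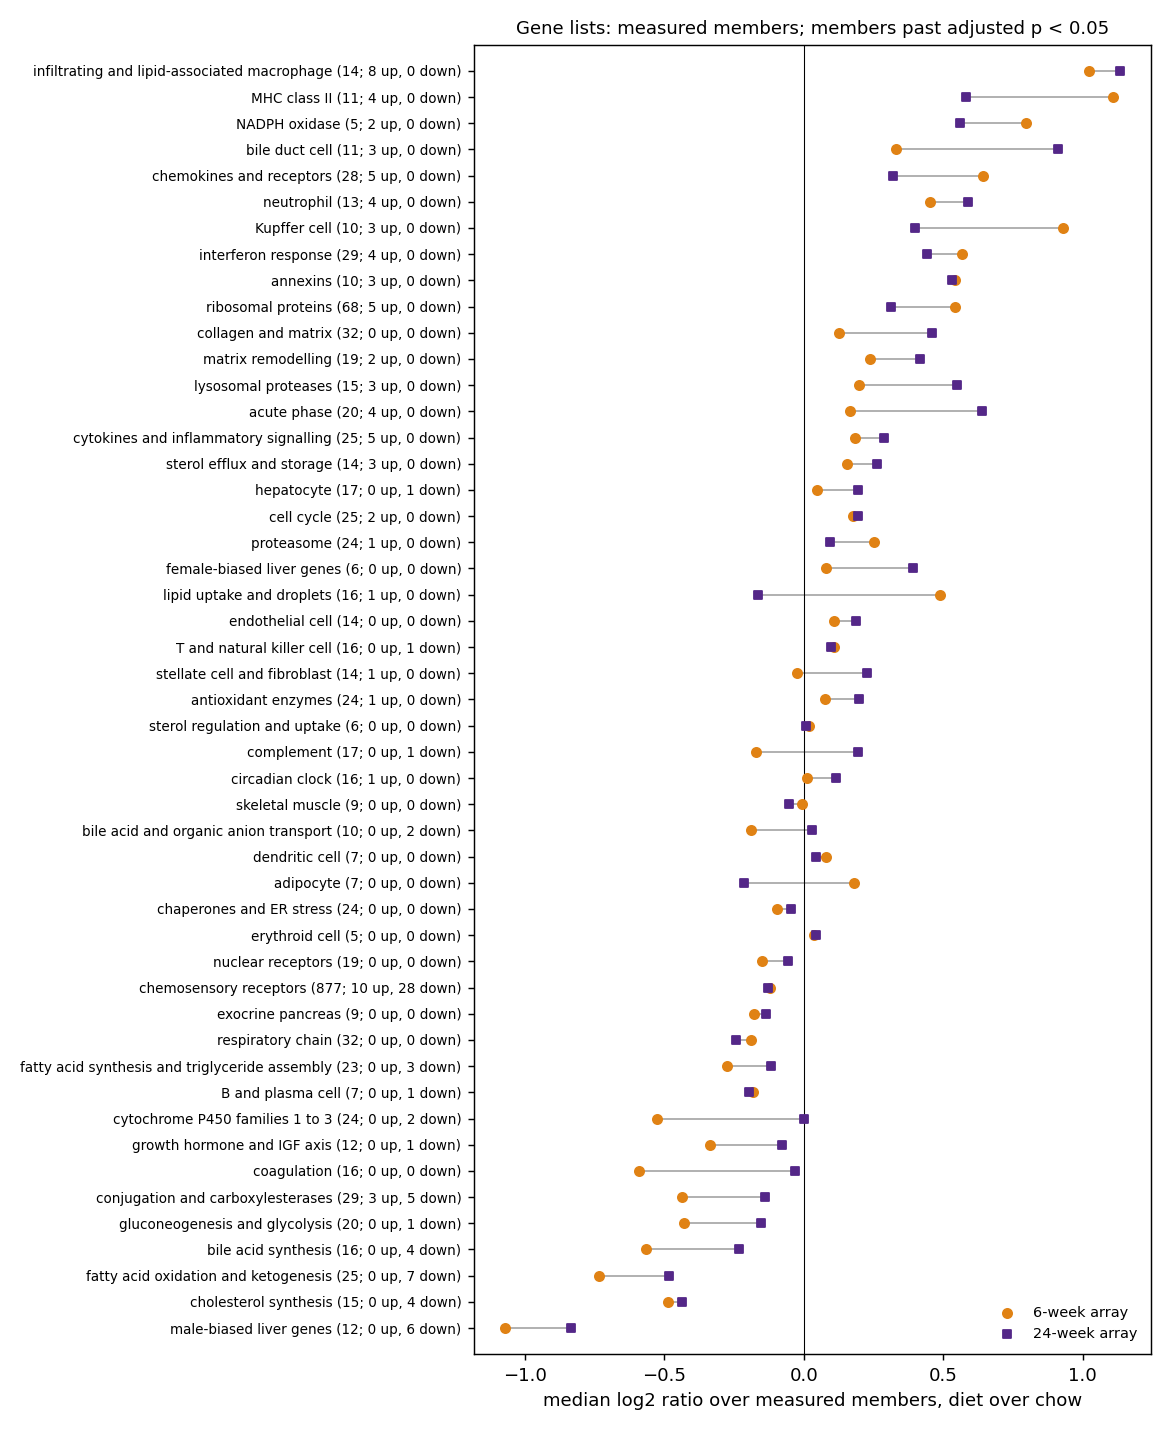
Median log2 ratio of diet over chow over the measured members of each gene list on the 6-week array (circles) and the 24-week array (squares), with the number measured and called in brackets. Infiltrating macrophage markers stand at 1.02 and 1.13 at the top and male-biased liver genes at -1.07 and -0.84 at the bottom.

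Of 15 measured genes of cholesterol synthesis, 0 rose and 4 fell, 12 were below 0 on both arrays, and the medians were -0.49 and -0.44. Dhcr7, which makes cholesterol in the last step of a branch of the pathway, was at -1.55 and -1.81 (3.21-fold lower, limma adjusted p = 0.0318). Idi1, the isopentenyl diphosphate isomerase gene, was at -1.22 and -1.68, Tm7sf2, a sterol reductase gene, at -1.04 and -1.13, and Sc5d, a sterol desaturase gene, at -1.15 and -0.75. Fdps was at -1.81 and -0.77 and missed the threshold. The 2 members above 0 on both arrays were Mvd (0.70 and 0.43) and Cyp51 (0.62 and 0.36). Promoters of this pathway are known to carry CCAAT boxes beside the sites of the sterol-regulated factor SREBP, and those of the 4 genes that fell are shown, 110 bases before the RefSeq start in GRCm38.p6, with CCAAT or ATTGG in capitals. They lie at chr7:143830104-143830213 (plus strand) for Dhcr7, chr13:8885496-8885605 (plus) for Idi1, chr19:6067851-6067960 (minus) for Tm7sf2 and chr9:42264301-42264410 (minus) for Sc5d. Dhcr7 has 3 listed starts, of which the 1 with the motif is shown.
Dhcr7: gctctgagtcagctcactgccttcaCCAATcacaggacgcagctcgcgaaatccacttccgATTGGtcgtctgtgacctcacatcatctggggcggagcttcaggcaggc
Idi1: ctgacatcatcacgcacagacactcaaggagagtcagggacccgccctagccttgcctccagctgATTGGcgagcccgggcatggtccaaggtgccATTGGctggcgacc
Tm7sf2: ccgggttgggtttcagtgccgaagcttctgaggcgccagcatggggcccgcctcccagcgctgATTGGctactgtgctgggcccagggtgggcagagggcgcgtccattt
Sc5d: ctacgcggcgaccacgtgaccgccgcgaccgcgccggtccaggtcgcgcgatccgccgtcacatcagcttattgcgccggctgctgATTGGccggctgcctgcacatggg
The motif was present for 11 of 12 members with a listed promoter (91.7%), called or not, against 23.0% of all genes listed. Since Mvd and Cyp51 also have it, its presence did not separate the genes that fell from those that lay above 0.

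Sterol efflux and storage genes counted 3 rises and 0 falls among 14. Lpl, lipoprotein lipase, was at 1.55 and 2.37, and Npc2, which moves cholesterol out of lysosomes, at 1.75 and 1.17. Abcg8 rose by 0.91 on each array (1.88-fold, limma adjusted p = 0.0429). Its partner Abcg5, with which it forms the exporter of sterol into bile, was at 0.65 and 1.34 and did not pass (adjusted p = 0.0597). Lpl is expressed by macrophages more than by adult hepatocytes.

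Bile acid synthesis was lower in 4 of 16 genes and higher in 0, and 11 were below 0 on both arrays. Below Cyp8b1 came Cyp7b1, an enzyme of the alternative pathway, at -1.88 and -2.11 (3.98-fold lower, limma adjusted p = 0.0315). Slc27a5, which activates bile acids for conjugation, was at -1.27 and -0.94, and Hsd17b4, a peroxisomal enzyme of side-chain shortening, at -0.89 and -0.67; the call of Hsd17b4 was lost without the 6-week array (limma adjusted p = 0.096). Cyp7a1, the rate-limiting enzyme of the classical pathway, was at -0.57 and -0.65. Its mean of -0.61 ± 0.12 (moderated SE, n = 2 arrays) missed the threshold (limma adjusted p = 0.0571). Cyp8b1 thus differed from chow by more than Cyp7a1 on both arrays. The nuclear receptor genes Nr1h4 (FXR) and Nr0b2 (SHP), which mediate bile acid feedback, were at -0.15 and 0.26 and at -0.16 and 0.06. Of 10 transporter genes 2 fell, both for uptake from blood: Slco1a1 at -1.71 and -2.22 and Slc10a1, the sodium-dependent bile acid carrier, at -1.90 and -1.35. Abcb11, the bile salt export pump, was at -0.32 and -0.02.

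Fatty acid oxidation had the most calls among the pathway lists that were lower. Of 25 measured genes 0 rose and 7 fell, 22 were below 0 on both arrays, and the medians were -0.73 and -0.48. Cyp4a14, Cyp4a31 and Cyp4a12a, fatty acid omega-hydroxylases, had means of -1.55, -1.44 and -1.14. Cyp4a14 was at -1.71 and -1.38 and Cyp4a31 at -1.37 and -1.51. On the high-fat arrays Cyp4a14 was at -0.27 and -1.86 and Cyp4a31 at -0.13 and -1.56. With either plain diet array left out, the spread comes from these high-fat values alone, and both genes lost their call. The peroxisomal thiolase gene Acaa1a was at -1.06 and -0.78, and Hadhb, a subunit of the mitochondrial trifunctional protein, at -0.87 and -0.70, which was lost without the 6-week array (limma adjusted p = 0.09). Hadha and Acadm also passed. Ppara, the receptor that drives this programme, was at -0.53 and -0.37 and did not pass. In the respiratory chain 0 of 32 genes passed the limma test and 6 had an unadjusted p under 0.05, with medians of -0.19 and -0.24.

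Of 23 genes for fatty acid synthesis and triglyceride assembly 3 fell and 0 rose: Elovl3, the desaturase gene Scd2 (-0.82 and -0.77) and Dgat1, which completes triglyceride (-1.18 and -1.09). The 2 probes for Dgat1 lay far apart, at -2.44 and 0.25 on the 24-week array. Fasn, fatty acid synthase, was at 0.30 and 0.27, and Scd1, the main liver desaturase, at 0.19 and 1.14. Among 16 genes for lipid uptake and droplets Fabp5, a fatty acid carrier of macrophages and epithelia, rose by 1.49 and 1.48. Cd36, the fatty acid translocase, was at 0.53 and 0.50 and did not pass.

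Male-biased liver genes, which depend on the pulsed growth hormone pattern of males, were the list with the lowest medians, at -1.07 and -0.84. Of 12 measured, 6 fell and 0 rose. Elovl3, Cyp7b1, Slco1a1 and Cyp4a12a belong to it and also to a list above, and the others were Susd4 (-1.39 and -1.54) and the complement gene C8b (-0.92 and -0.72). Ghr, the growth hormone receptor, fell as well (-0.88 and -0.79, limma adjusted p = 0.0464). Igf1, its main hepatic target, was at -0.65 and -0.50 and did not pass. Female-biased genes gave 0 limma calls among 6 (2 at an unadjusted p under 0.05), with Cyp17a1 at 0.44 and 0.91.

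Drug-metabolizing enzymes moved in both directions. Falls included the carboxylesterase genes Ces1f (-1.55 and -1.57), Ces3a (-1.23 and -1.49) and Ces1d (-1.94 and -1.16), whose products hydrolyse esters and lipids. The glutathione transferase genes Gsta1 (1.30 and 1.83) and Gsta2 (1.19 and 1.83; limma adjusted p = 0.0787 without the 24-week array) rose; they are near-identical in sequence, so their probes may read both. In all, 3 of 29 conjugation and esterase genes rose and 5 fell. Of 24 cytochrome P450 genes of families 1 to 3, Cyp2c50 (-1.88 and -1.44) and Cyp2j5 (-0.99 and -0.95) fell. Among antioxidant enzymes Prdx2, a peroxide-reducing peroxiredoxin, rose (1.82 and 1.42), while catalase, Cat, was at -0.56 and -0.78 and superoxide dismutase, Sod1, at -0.32 and -0.16, neither past the test.

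Hepatocyte identity markers showed 1 call among 17, Pck1, a control enzyme of glucose production (-1.15 and -0.79, limma adjusted p = 0.0464, and 0.0538 without the 6-week array). Their medians were 0.05 and 0.19, with 9 above 0 on both arrays and 6 below. Of the 17, 11 had an unadjusted p under 0.05, against 33.9% of all genes, and 4 had a probe at a shared value. Some probes of abundant genes took nearly the same ratio on an array. At 24 weeks 256 probes lay within 0.003 (log10) of the value equal to 0.58 in log2. Within 0.001 of it lay 134 probes, against 85.9 expected from neighbouring values, so many of the 256 may lie there without sharing a value. The 6-week value, equal to 0.87, was taken as the commonest among probes at the 24-week value. Of 134 probes within 0.003 of it, 22 were also at the 24-week value, and no expected count was computed. Ttr was at 0.42 and 0.58 and Apoe at 0.86 and 0.59, so the ratios of such genes may not follow their RNA, and the cause of the shared values was not tested. Of 174 genes with a probe at the 24-week value, 1 (0.575%) was called, against 4.8% of all genes. These genes were picked by a value that enters the tested mean, so the count gives no information on their RNA. Coagulation factor genes, also made by hepatocytes, gave 0 limma calls among 16 (4 at an unadjusted p under 0.05), with medians of -0.59 at 6 weeks and -0.03 at 24 weeks.

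Ribosomal protein genes had medians of 0.54 and 0.31, with 54 of 68 above 0 on both arrays, 5 higher past the test and 0 lower. Rps3a1, a protein of the small subunit, was at 1.23 and 0.92, and Rpl27, of the large subunit, at 1.02 and 0.89. In the cell cycle list 2 of 25 rose, Ccnb2, a mitotic cyclin (1.39 and 1.39), and the proliferation marker Mki67 (0.83 and 0.88). The 2 probes for Mki67 lay apart, at 0.16 and 1.60 on the 24-week array, and with only the probe that has values on all 4 arrays its mean was 0.47 and did not pass. In all, 15 of the 25 were above 0 on both arrays, against 40.1% of all genes, and 5 below, against 35.8%. Those above included Mcm6 (0.58 and 0.63) and those below Plk1 (-0.51 and -1.38), and none of the other 23 passed.

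Other lists held few calls. Of all genes 2.95% were called higher and 1.85% lower, so counts of 0 or 1 do not set lists of this size apart. Rora, a nuclear receptor of the circadian clock, rose (0.76 and 0.94) as 1 of 16 clock genes, and Psmb10, a subunit of the immunoproteasome, as 1 of 24 proteasome genes (1.12 and 0.78). Of 20 genes for glucose production and glycolysis Pck1 fell, and of 17 complement genes C8b. Among 24 chaperones and genes of endoplasmic reticulum stress 0 passed the limma test. An unadjusted p under 0.05 was found for 12 of the 24, against 33.9% of all genes. The chaperone gene Hspd1, of mitochondria, was at -0.69 and -0.62, and Atf3, a stress-induced factor, at 0.74 and 0.69. Of 19 nuclear receptor genes 0 passed the limma test (5 at an unadjusted p under 0.05), and Nr1i3, the receptor CAR, was at -0.56 and -0.81. Sterol regulation and uptake gave 0 of 6 by limma and 0 at an unadjusted p under 0.05, with Srebf2, the sterol-regulated factor, at -0.12 and -0.16.

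Some genes had opposite signs at 6 and 24 weeks, so that a mean over both arrays does not describe them. The 6 with the largest smaller value were Marco, Cyp39a1, Mt1, Mt2, Adamts5 and Cidec. Cyp39a1, an oxysterol hydroxylase of bile acid synthesis, was at -1.32 at 6 weeks and 0.83 at 24 weeks. The metallothioneins Mt1 (-0.81 and 0.71) and Mt2 (-0.68 and 0.74), which bind zinc, moved alike, although probes of such close relatives may read both genes. Adamts5, a protease of matrix proteoglycans, was at -0.65 and 1.18, and Cidec, a lipid droplet protein, at 0.66 and -0.67. Each of these values is 1 array, and an effect of duration and the spread between arrays cannot be told apart.

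**Figure D5:**
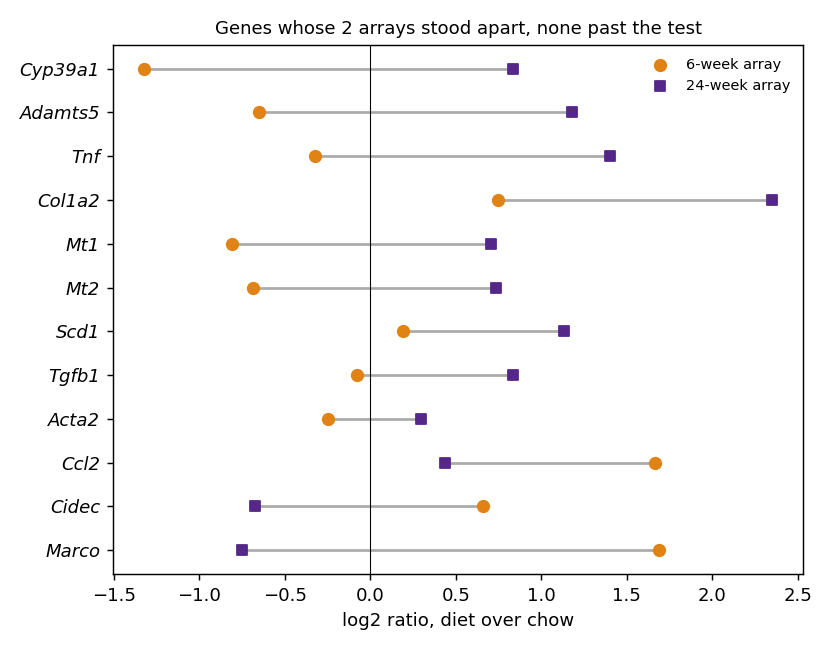
Log2 ratio of diet over chow on the 6-week array (circles) and the 24-week array (squares) for the 6 genes with the largest opposite values and for 6 genes of inflammation, matrix and lipid synthesis fixed for naming. Marco ran from 1.69 to -0.75 and Col1a2 from 0.75 to 2.35, and none of the 12 passed the test.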

How the data were processed

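Per the series' design text, liver RNA was amplified and labelled, AceGene Mouse Oligo Chip 30K slides were used, spots were read with GenePix Pro 4.1, and the authors normalized values by LOWESS in GeneSpring 7.2. The deposited values are log10 ratios of diet over chow: the base is inferred from their spread and the direction from the dyes, and neither this nor any centring is stated (column medians -0.019 at 6 weeks and -0.005 at 24 weeks). How background was corrected, and which spots were filtered, is not given in the sources used here. Spot intensities were not used here, so the number of arrays limits the precision.

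Values were converted to log2. Of 28845 probes, the platform annotation named 1 gene for 17637 and several for 64, and 11144 were not listed. Symbols were updated through RefSeq (GRCm38.p6), where 252 probes found no match. Probes with a missing value on either array were left out (108), which left 17592 probes for 13930 genes, 2853 of them with more than 1 probe. Probes of a gene differed with a pooled SD of 0.47 at 6 weeks and 0.42 at 24 weeks (log2). Probe coordinates were not used here.

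The mean of the 2 arrays was tested against 0 with limma 3.58.1 (lmFit, eBayes, two-sided, Benjamini-Hochberg over all genes) in R 4.3.3, with 1 residual degree of freedom before moderation; the scripts were tested on simulated data. Named were the 12 largest rises and falls by the smaller of the 2 values, passing over predicted genes; up to 5 called members of each of 48 lists (else 3 as values); 6 genes of opposite sign; and some genes listed by name, not all of which are reported here. Further list members named as values were chosen after their values were seen. The comparison, the lists and these rules were chosen with earlier results of these data known. Alternatives were other thresholds, probe summaries, centring, scaling, robust eBayes, spread pooled with the high-fat arrays, removal of shared values, other log bases and leaving out each array.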

Additional observations from a re-analysis of the deposited data

Results flagged for a closer look

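The difference between the atherogenic diet without and with added fat, tested with limma over all 4 arrays as background, passed an adjusted p of 0.05 for 8 of 13705 genes (0.0584%), and 3812 (27.8%) had an unadjusted p under 0.05. The count was 1541 with duration as a block, 363 after centring and scaling, 2643 without the atherogenic 24-week array and 0 without any of the other arrays. With the block, 31 of 101 genes named for diet over chow passed. The 8 genes were Serpina1a, Serpina1b, Serpina1e, Ttr, Mgst1, B3gnt4, 2700038G22Rik and CYTB, chosen after their values were seen, with differences from 1.81 for Ttr to 2.03 for Serpina1a (limma adjusted p = 0.0479 each). Serpina1a was at 0.86 and 0.59 without added fat and at -1.35 and -1.25 with it. Nearly the same high-fat values recur in the other 7 genes: on the high-fat arrays 35 probes lay within 0.003 (log10) of the value equal to -1.35 in log2 at 6 weeks and 37 within 0.003 of that equal to -1.28 at 24 weeks. Whether these probes measured RNA was not tested.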

How the results depend on the processing

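For diet over chow, no paired analysis was possible because the labels give no replicate numbers and each duration had 1 array, while the difference between diets was also fitted with duration as a block. The 669 genes called for diet over chow became 0 at an adjusted p of 0.01 and 3163 at 0.1. Each probe tested on its own gave 3426 probes, 1701 higher and 1725 lower, a nearly even split beside 411 and 258 for named genes. Centring and scaling the arrays gave 2092 genes (centring alone 810), a spread pooled over 4 arrays 4297, and the same with duration 5502. Leaving out 1 array, with the other assumed to vary like the high-fat arrays, gave 3290 without the 6-week array and 4856 without the 24-week array, and 626 and 642 of 662 measured calls were kept. Of the 669, 601 were kept with robust eBayes and 600 of 655 without shared values. Of 102 called named genes, 93 to 102 kept their call under 10 alternatives. Without the 6-week array Pck1, Krt23, Hsd17b4, Cyp4a14, Cyp4a31, Hadhb, Ccl9 and Mki67 lost theirs (limma adjusted p from 0.0538 to 0.306), and without the 24-week array Krt23, Cyp4a14, Cyp4a31, Gsta2 and Apcs (0.0522 to 0.0893). Anxa5, Hsd17b4, Ccl19, Saa2, Oasl1 and Irf7 lost theirs with robust eBayes and without shared values (0.0505 to 0.0518), and Mki67 with a spread pooled over 4 arrays or probes on all 4. The 242 genes past 2-fold on both arrays became 1140 at 1.5-fold, 60 at 3-fold, 4 for natural logarithms and 1 for base 2. The 8 genes that differed between the diets became 1331 at an adjusted p of 0.1, 1541 with duration as a block, 363 after centring and scaling, and 0 to 2643 on leaving out each array, with 2643 without the atherogenic 24-week array and 0 without any of the others. The cause was not tested.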

Other observations

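The gene groups that follow were chosen after their values were seen, and some hold genes already named above. Of all genes 2.95% were called higher and 1.85% lower. Because of that choice, counts in these groups cannot serve as a test against these shares. Of 37 measured genes expressed across leukocytes, 14 rose and 0 fell, 30 were above 0 on both arrays, and the medians were 0.84 at 6 weeks and 0.60 at 24 weeks. Tyrobp and Fcer1g, the signalling adaptors of many myeloid receptors, had log2 ratios of 1.66 and 1.56 and of 1.97 and 1.54. Coro1a, an actin regulator of leukocytes, was at 1.64 and 1.61, and Spi1, the transcription factor of the myeloid lineage, at 1.27 and 1.15. Ptprc, the pan-leukocyte surface phosphatase CD45, was at 0.35 and 0.45 as the mean of 2 probes and did not pass, nor did Rac2, a GTPase gene of blood cells, at -0.65 and -0.59. Within the S100a family 4 of 12 rose, S100a4 (2.42 and 1.73) beside those named earlier, and within the Clec lectins 4 of 20, including Clec4b1 (1.74 and 2.07).

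Amino acid breakdown and the urea cycle, a hepatocyte function, gave 6 falls and 0 rises among 44 genes, with 29 below 0 on both arrays and medians of -0.55 and -0.20. Oat, ornithine aminotransferase, was at -1.52 and -1.32, Sardh, sarcosine dehydrogenase, at -1.46 and -1.08, and Mat1a, which makes S-adenosylmethionine in liver, at -1.38 and -0.89. Arg1, the last enzyme of the urea cycle, was at 0.37 and 0.31 and did not pass. The Ugt family of glucuronosyltransferases had 5 falls and 0 rises among 12, led by Ugt1a2 (-1.83 and -1.38), and the Cyp4 family 4 falls and 0 rises among 12, of which Cyp4f14 (-1.04 and -0.93) lies outside the lists above.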
